A study of Mus musculus with 18 samples.

Results

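Brown fat makes heat mainly by leaking protons through UCP1, and 2 further cycles are known to spend ATP for heat without UCP1. The genes described here are 10 known to act in these cycles, chosen by symbol (Slc6a8, Gatm, Gamt, Ckb, Ckmt1, Ckmt2, Alpl, Atp2a2, Atp2a1 and Ryr2). They are not all the genes of the cycles, and each of the 10 matched 1 row of a table of 54347 mouse genes. They were followed in wt1-SAM cells, an immortalised brown preadipocyte line that stably carries the SAM machinery for CRISPR activation, differentiated into adipocytes and harvested on day 7. On day 4 the cells received a locked nucleic acid (LNA) antisense oligonucleotide, either the scrambled control ctrlA or 1 of 2 oligonucleotides, LNA1 and LNA2, that target the long noncoding RNA Gm15551. The cells were then left unstimulated or were given 1 µM isoproterenol, an agonist of β-adrenergic receptors, for the last 24 h. This gave 6 groups of 3 polyadenylated RNA libraries, and the replicate numbers 2, 3 and 4 recur in every group.

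All 6 groups share the same single cell line and SAM background, the same transfection step and the same media. The differentiation media contained rosiglitazone, an agonist of the adipogenic receptor PPARγ, and for 24 h from the transfection the cells were in Opti-MEM, for which no rosiglitazone is stated. The sources used here do not say whether the replicates are separate cultures, so that the p-values measure only the spread between these libraries. The cells carried the genes of fat cells, since the summed level of 6 adipocyte markers ranged from 10300 to 24700 CPM, the counts scaled to the normalised size of each library. Most of this sum was Fabp4, with a mean of 11800 CPM, and the means of the other markers ran from 155 (Pparg) to 1500 CPM (Cidec). Ucp1 averaged 6.99 CPM and was higher with isoproterenol by 3.51 on the log2 scale (adjusted p = 1.12e-08). It had the largest change among 8 listed brown adipocyte markers. Of these 7 were tested, 3 were called higher and 0 lower, and the median was 0.36, where 4.58% of all genes were called. Elovl3 (0.36), Ppara (0.34), Cox7a1 (0.09) and Prdm16 (-0.19) were not called, and Dio2, at a mean of 0.0847 CPM, was too low to test.

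Creatine is made from arginine and glycine by GATM and GAMT, or is taken up by the transporter SLC6A8. Creatine kinases charge it with the phosphate of ATP, and in thermogenic fat the phosphatase TNAP, the product of Alpl, can remove that phosphate again, so that ATP is spent with no net product. In the calcium cycle, SERCA pumps (encoded by the Atp2a genes) move calcium into the endoplasmic reticulum at the cost of ATP and channels such as RYR2 let it out again.

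The oligonucleotides are shown because every LNA comparison rests on them. Capitals mark a sequence that is complementary over its whole length to the Gm15551 transcript, and each is written 5′ to 3′.
ctrlA: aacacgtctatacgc
LNA1: GATGACTGAGATTAGA
LNA2: AAGTAGCACGGCGTTG
The sites of LNA1 (chr3:126667502-126667517) and LNA2 (chr3:126667608-126667623) both lie in exon 2 of Gm15551, on the minus strand of GRCm38. Against the transcripts of the 10 members, the longest complementary stretch was 5 to 8 bases for ctrlA, 6 to 10 for LNA1 (10 in Ryr2, 9 in Ckmt1) and 6 to 10 for LNA2 (10 in Alpl). Ckb, the tested member called with both LNAs below, shared 7 bases with LNA1 and 6 with LNA2.

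The libraries held 9167560 to 19723021 counts, and 3 counts, taken as the floor of detection, corresponded to 0.152 to 0.327 CPM. The 6 libraries of replicate number 2 stood apart from the other 12. In them CT010467.1, which encodes ribosomal RNA, held 2.88 to 14.29% of the counts, against 0.28 to 1.04%, and mitochondrially encoded genes took 7.86 to 9.79%, against 2.56 to 4.97%. Their part in the results was not tested, and the isoproterenol, LNA1 and LNA2 differences of the members that passed the filter on low counts are given with all libraries, with the replicate number as a block in the model, and without these 6 libraries. The targeted Gm15551 had only 1 to 14 counts per library and did not pass that filter. Its mean was 0.647 CPM in unstimulated ctrlA cells, 0.53 in LNA1 cells and 0.452 in LNA2 cells, and these 3 groups overlapped. With isoproterenol the means were 0.339, 0.153 and 0.283 CPM. In a fit without the filter its log2 fold change was -0.70 ± 0.586 (SE) with LNA1 and -0.43 ± 0.567 with LNA2 (adjusted p = 1 for both). Both values were below 0, and at this depth neither passed the test.

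The mean level of the members ranged from 0.00305 to 62.5 CPM per kilobase of exon. Atp2a2, the pump of the endoplasmic reticulum of most tissues, led with 62.5 ± 20.8 CPM per kilobase (SD, n = 18), at percentile 94.6 of the 14949 genes tested. Alpl followed with 21.4 ± 9.22 CPM per kilobase (percentile 83.3). The transporter Slc6a8 at 5.47 ± 1.81 and the methyltransferase Gamt at 5.42 ± 1.39 CPM per kilobase could not be ordered, because Slc6a8 was higher in 9 libraries and lower in the other 9. The libraries in which Slc6a8 was higher all had replicate number 3 or 4, and it was lower in every library of replicate number 2. Each of the steps from Atp2a2 to Alpl, from Alpl to Slc6a8 and from Gamt to Ckb held in 18 of 18 libraries.

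Ckb, the cytosolic brain-type creatine kinase, stood at 0.746 ± 0.443 CPM per kilobase (percentile 19.3). It was above Atp2a1, the pump of fast skeletal muscle (0.261 ± 0.18, percentile 6.95), in 18 of 18 libraries. The remaining 4 members did not pass the filter, which asked for at least 10 counts at the median depth (0.774 CPM) in 3 libraries. These were the ubiquitous mitochondrial kinase Ckmt1 (0.0946 CPM per kilobase), the cardiac release channel Ryr2 (0.00888), the amidinotransferase Gatm (0.00514) and the sarcomeric mitochondrial kinase Ckmt2 (0.00305). Gatm, which makes the first intermediate of creatine, had 4 counts over the 18 libraries together and Ckmt2 had 1, so neither was detectable at this depth in any single library. The cells therefore showed the RNA of the second enzyme of creatine synthesis and of the transporter, and none above the floor of the first enzyme.

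**Figure D1:**
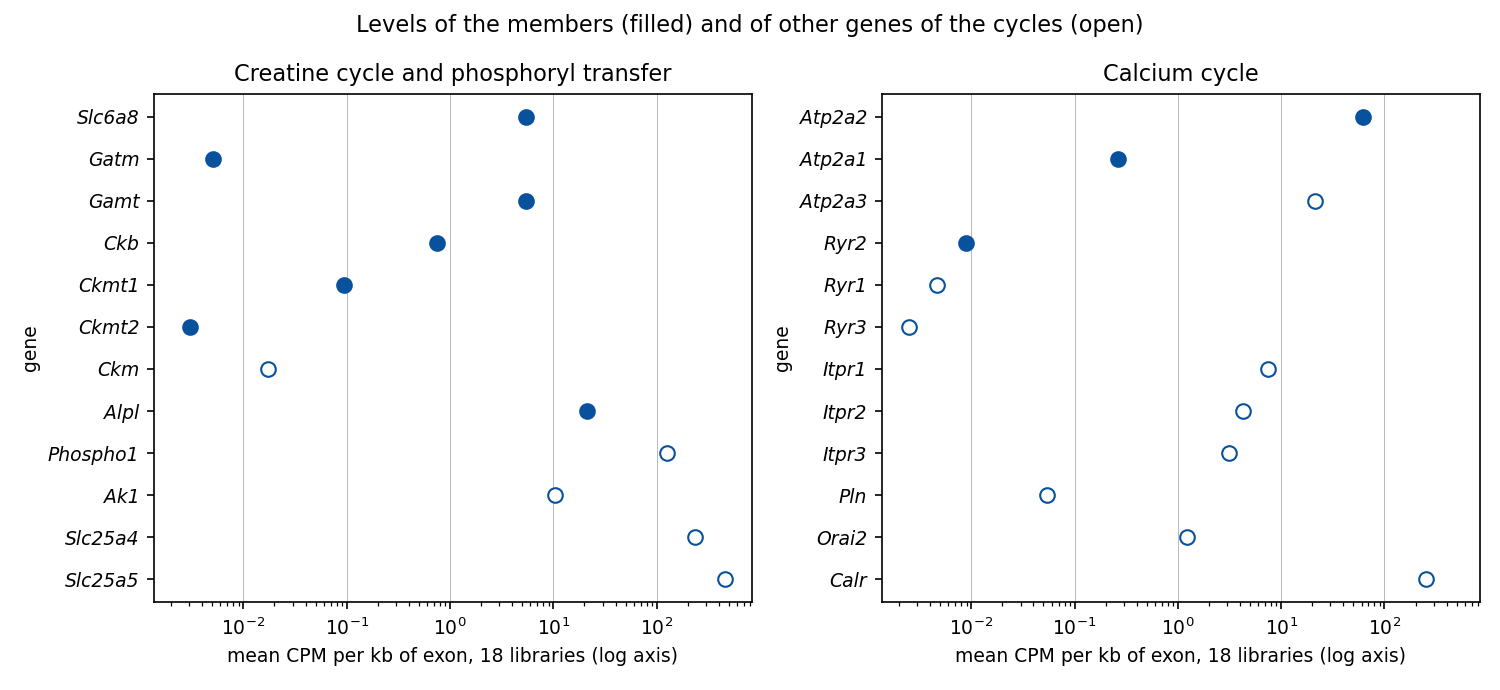
Mean level over the 18 libraries in CPM per kilobase of exon, on a log axis, for the 10 members (filled circles) and for other genes listed around the same cycles (open circles). Among the members Atp2a2 at 62.5 and Alpl at 21.4 CPM per kilobase lie far to the right, whereas Gatm, Ckmt2 and Ryr2 lie below 0.01.

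The families around the members had the same shape, with 1 or a few forms carrying nearly all the RNA. Among the 4 creatine kinases, 481 of 550 counts (87.5%) were Ckb, 56 (10.2%) Ckmt1, 12 (2.18%) the muscle kinase Ckm and 1 Ckmt2. Over single libraries Ckb took 60.1 to 100% of the level per kilobase and Ckmt1 0 to 39.9%, and 43 of the 56 Ckmt1 counts were in LNA2 cells. Among the 3 SERCA pumps, Atp2a2 took 75% of the level per kilobase (68.8 to 81% over the libraries) and Atp2a3 24.7%, whereas Atp2a1 took 0.3%. Among the calcium release channels, the 3 inositol trisphosphate receptors Itpr1, Itpr2 and Itpr3 took 50.4, 29.6 and 19.9% of the level per kilobase. Ryr2 took 0.0728%, and it was the highest of the 3 ryanodine receptors. Of the small peptides that regulate SERCA in muscle, Sln, which restrains the pump, and Strit1, which relieves that restraint, had 0 of 230847995 counts, which allows up to 0.013 CPM, while Pln had 34 counts and Mrln 8.

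Libraries of replicate number 2 also differed in the members themselves. Atp2a2 ranged from 195 to 239 CPM in these 6 libraries and from 414 to 506 CPM in the other 12, so that the ranges did not overlap. Slc6a8 averaged 19.1 against 33.2 CPM, Alpl 57 against 101 CPM and Atp2a1 0.374 against 1.18 CPM. Gamt went the other way, with 9.83 against 6.84 CPM. For Atp2a2 this difference exceeded any difference between group means, which lay between 352 and 401 CPM.

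The members called in each of 9 comparisons were counted against the share of all tested genes that passed the same test, edgeR's quasi-likelihood test at an adjusted p below 0.05. With isoproterenol averaged over the LNAs, 1 of the 6 tested members was called (Alpl), where 4.58% of all genes were called. With the replicate block 2 members were called (Alpl and Slc6a8) against 26.4% of all genes, and without replicate number 2 the same 2 were called against 10.9%. The median log2 fold change of the 6 members, which went both ways, was 0.42, beside -0.002 over all genes. It was 0.51, 0.06 and 0.50 for isoproterenol in ctrlA, LNA1 and LNA2 cells, -0.09 for LNA1 and 0.06 for LNA2.

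Within ctrlA, LNA1 and LNA2 cells taken separately, 0 members were called with isoproterenol by edgeR, where 0.488, 0.702 and 0.395% of all genes were called. At an unadjusted p under 0.05 there were 1, 0 and 1 members, and DESeq2 called 0 in each. With the block Alpl and Slc6a8 were called in all 3, beside 7.88, 9.84 and 9.55% of all genes. Without replicate number 2 Alpl alone was called in each, beside 1.32, 2.28 and 1.38% of all genes.

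Between LNAs, averaged over stimulation, Ckb was called higher with LNA1 and higher with LNA2. The shares of all genes called were 0.475% for LNA1 and 1.59% for LNA2, and leaving out 1 library gave 0.209 to 0.559% and 0.77 to 1.87%. With the block, Ckb remained the 1 called member for LNA1 (7.8% of all genes) and 3 members were called for LNA2 (20.6%), namely Ckb, Slc6a8 and Alpl. Without replicate number 2 there were again 1 member for LNA1 (1.6% of all genes) and the same 3 for LNA2 (8.97%). Both LNAs are compared with the same 6 ctrlA libraries. Between LNA2 and LNA1, 0 members were called by edgeR (0.97% of all genes), 1 had an unadjusted p under 0.05 and DESeq2 called 0, whereas 1 member (Slc6a8) was called with the block (15.4%) and without replicate number 2 (5.08%). The change of the isoproterenol response by LNA1 or by LNA2 was called for 0 members and 0% of all genes. There edgeR gave 0 members an unadjusted p under 0.05 and DESeq2 called 0. A single call among 6 members exceeds any of the unblocked shares by the size of the list alone. With the block, 2 of 6 members for isoproterenol on average was close to the share of all genes, and 2 of 6 within each LNA and 3 of 6 for LNA2 were above it.

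**Figure D2:**
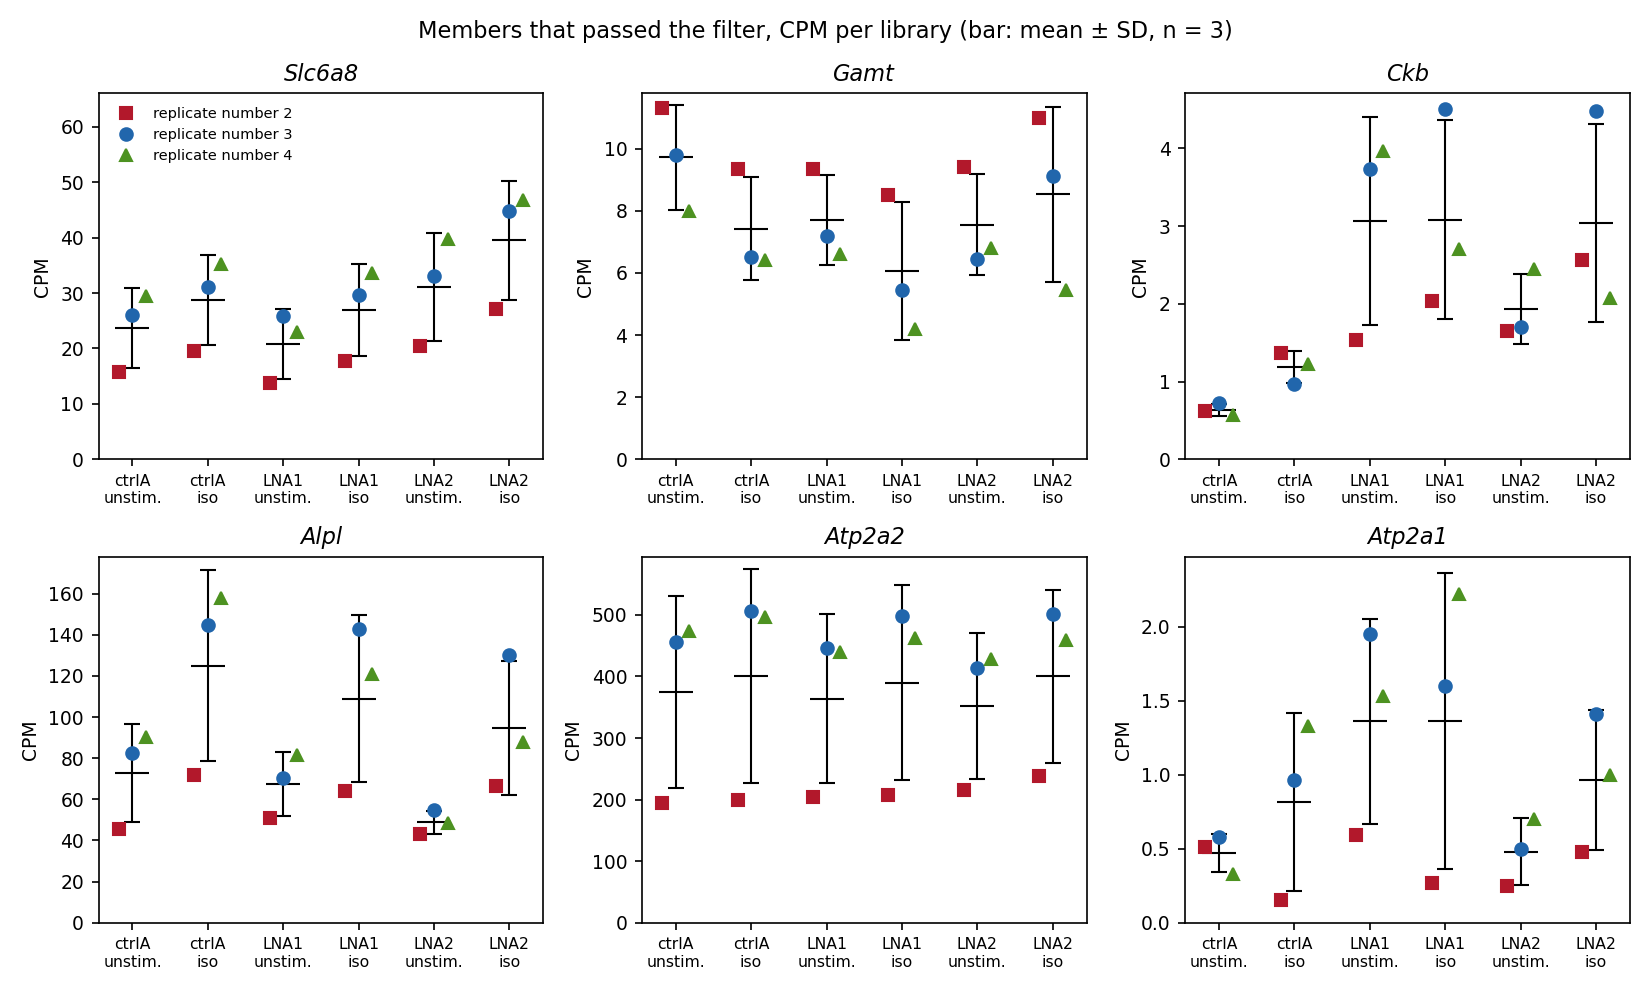
CPM of the 6 members that passed the filter in each of the 18 libraries (y axis, linear from 0), by group (x axis), with the replicate number as symbol and a bar for the mean ± SD of the 3 libraries. The squares of replicate number 2 lie lowest in every group for Slc6a8, Alpl and Atp2a2 and highest for Gamt, and Ckb is lowest in the ctrlA groups.

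Slc6a8 (chrX:73673150-73682502, plus strand), the creatine transporter of the plasma membrane, was measured at 15.7, 26 and 29.4 CPM in unstimulated ctrlA cells and at 19.6, 31.1 and 35.2 CPM with isoproterenol, in the order of replicate numbers 2, 3 and 4. In LNA1 cells the values were 13.8, 25.9 and 22.9 CPM unstimulated and 17.7, 29.6 and 33.7 CPM stimulated. In LNA2 cells they were 20.5, 33.1 and 39.8 CPM unstimulated and 27.1, 44.8 and 46.7 CPM stimulated. The stimulated library was the higher one in 9 of 9 pairs of the same number, and the LNA2 library was higher than its ctrlA partner in 6 of 6 pairs, although the groups overlapped because of the low replicate number 2. Averaged over the LNAs, Slc6a8 differed with isoproterenol by a log2 fold change of 0.33 ± 0.2 (SE), which did not pass the test (adjusted p = 0.524). With the replicate block the same value had an SE of 0.0449 (adjusted p = 3.75e-05), and without replicate number 2 it was 0.31 (adjusted p = 0.0238).

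With LNA2, Slc6a8 was higher than with ctrlA by 0.43 ± 0.244, a value called only with the block (adjusted p = 0.626 without it and 5.93e-05 with it) or without replicate number 2 (0.46, adjusted p = 0.0117). The log2 ratio of LNA2 to ctrlA, on CPM with 0.5 added, was 0.42, 0.43 and 0.42 within replicate numbers 2, 3 and 4. The LNA1 library was lower than its ctrlA partner in 6 of 6 pairs as well, by -0.13 ± 0.245 (adjusted p = 1), and Slc6a8 with LNA1 passed neither with the block (-0.13 ± 0.0559, adjusted p = 0.166) nor without replicate number 2 (-0.10, adjusted p = 0.76). LNA2 exceeded LNA1 by 0.56 ± 0.245, with an adjusted p of 0.469 in the unblocked fit, of 9.35e-06 with the block and of 0.00644 without replicate number 2. The isoproterenol difference with the block was 0.28, 0.37 and 0.35 in ctrlA, LNA1 and LNA2 cells (adjusted p = 0.0359, 0.007 and 0.00744), and the difference of the LNA1 and LNA2 responses from that in ctrlA cells was 0.10 ± 0.49 and 0.07 ± 0.488 in the unblocked fit, which did not pass.

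Gamt (chr10:80258151-80261012, minus strand) methylates guanidinoacetate to creatine. Its group means lay between 6.06 ± 2.22 CPM in stimulated LNA1 cells and 9.72 ± 1.68 CPM in unstimulated ctrlA cells (SD, n = 3), and all groups overlapped. Gamt was lower with isoproterenol in 7 of 9 pairs (log2 fold change -0.19 ± 0.171, adjusted p = 0.751) and lower with LNA1 in 6 of 6 pairs (-0.32 ± 0.209, adjusted p = 1). The isoproterenol difference of Gamt was -0.39 ± 0.294 in ctrlA, -0.35 ± 0.299 in LNA1 and 0.17 ± 0.295 in LNA2 cells, and the LNA2 response differed from that in ctrlA cells by 0.56 ± 0.416 (adjusted p = 1), or by 0.55 ± 0.206 with the block (adjusted p = 0.81). Neither of the averaged values passed with the block (adjusted p = 0.0895 and 0.0734) or without replicate number 2 (-0.29 and -0.37, adjusted p = 0.226 and 0.39). With LNA2 the difference was -0.09 ± 0.208 (adjusted p = 0.98), with the block -0.09 (0.596) and without replicate number 2 -0.10 (0.752). The first enzyme of the pathway, Gatm (chr2:122594467-122611303, minus strand), had at most 1 count in any library and is given no fold change.

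Ckb (chr12:111669361-111672338, minus strand) encodes the kinase that is known to supply phosphocreatine to the futile cycle in brown fat. Its 300 bases of promoter, from 250 bases before to 50 bases after the start of the RefSeq gene on GRCm38.p6 (chr12:111672289-111672588, minus strand), are printed because Ckb was the member called with both LNAs. The 3 motifs searched, on both strands, were the cAMP response element TGACGTCA, its half-site TGACG and the nuclear receptor half-site AGGTCA, which occur in 1.79, 20.8 and 16.3% of 32851 RefSeq promoters of that length. The half-site TGACG also lies within the full element. None of the 3 strings was in the Ckb window, which had 63% G and C against a median of 52.7%.
Ckb promoter: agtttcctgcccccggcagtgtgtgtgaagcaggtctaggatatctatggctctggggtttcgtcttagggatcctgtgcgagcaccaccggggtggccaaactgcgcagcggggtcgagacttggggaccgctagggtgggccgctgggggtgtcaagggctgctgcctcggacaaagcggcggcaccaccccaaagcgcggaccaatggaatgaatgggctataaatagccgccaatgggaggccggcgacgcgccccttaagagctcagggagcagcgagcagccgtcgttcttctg

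Ckb was scarce in control cells and several times higher with either targeting LNA. In unstimulated ctrlA cells it was at 0.624, 0.722 and 0.571 CPM (11, 10 and 7 counts) and in stimulated ctrlA cells at 1.37, 0.965 and 1.23 CPM. With LNA1 the values were 1.53, 3.73 and 3.97 CPM unstimulated and 2.04, 4.51 and 2.7 CPM stimulated. With LNA2 they were 1.65, 1.7 and 2.45 CPM unstimulated and 2.56, 4.48 and 2.08 CPM stimulated. The 6 ctrlA libraries (0.571 to 1.37 CPM) did not overlap the 6 LNA1 libraries (1.53 to 4.51 CPM) or the 6 LNA2 libraries (1.65 to 4.48 CPM), while LNA1 and LNA2 overlapped widely.

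Ckb rose with LNA1 by a log2 fold change of 1.81 ± 0.293 (SE), or 3.51-fold (adjusted p = 0.0119). The block gave 1.76 (adjusted p = 0.000892), and leaving out replicate number 2 gave 2.17 (adjusted p = 0.00708). The call held in 18 of 18 fits that left out 1 library, with values of 1.62 to 1.98 and an adjusted p of at most 0.049. With LNA2 Ckb rose by 1.47 ± 0.294, or 2.77-fold (adjusted p = 0.0177, 0.00136 with the block and 0.00963 without replicate number 2). That call was lost on leaving out 1 of 5 libraries, namely unstimulated ctrlA replicate 2 (adjusted p = 0.0503) or 4 (0.0564), stimulated ctrlA replicate 3 (0.0617), unstimulated LNA2 replicate 4 (0.0663) or stimulated LNA2 replicate 3 (0.0521), while the log2 fold change stayed between 1.27 and 1.58 over all 18 such fits. LNA2 and LNA1 differed by -0.34 ± 0.272 (adjusted p = 0.903). The contrast was weakest within replicate number 2, with a log2 ratio of LNA1 to ctrlA of 0.65, against 1.78 and 1.48 within numbers 3 and 4. These ratios were taken on CPM with 0.5 added, which makes them smaller than the fitted values.

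With isoproterenol Ckb was higher by 0.51 ± 0.233 averaged over the LNAs, in 7 of 9 pairs, and did not pass the test (adjusted p = 0.308, or 0.0927 with the block, or 0.34 at a value of 0.42 without replicate number 2). The 3 stimulated ctrlA libraries were all above the 3 unstimulated ones (0.87 ± 0.44), whereas the difference in LNA1 cells was 0.02 ± 0.381, and the test of that change in response did not pass (-0.86 ± 0.581, adjusted p = 1). These values rest on 7 to 62 counts per library. No unstimulated ctrlA library was above the filter level of 0.774 CPM, and all 3 libraries of each other group did, the stimulated ctrlA group included. Of 5 preadipocyte markers 4 were tested. Of these 1, Pdgfra, was higher with LNA1 (0.89, adjusted p = 0.00743) and with LNA2 (0.71, adjusted p = 0.0121), as Ckb was. With LNA1 Ly6a differed by 0.15, Cd34 by -0.34 and Pdgfrb by -0.22. With LNA2 these values were 0.57, -0.67 and 0.2, and none of these genes was called with either LNA. The medians of the tested markers were -0.04 with LNA1 and 0.38 with LNA2. The summed level of the 5 was 41.2 to 77.2 CPM with ctrlA, 41.6 to 86.5 with LNA1 and 48 to 88.6 with LNA2, and its part in the Ckb result was not tested.

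Both mitochondrial creatine kinases, which pass ATP made in mitochondria to creatine, were near or below the floor. Ckmt2 (chr13:91853387-91876885, minus strand) had a single count, in an unstimulated ctrlA library. Ckmt1 (chr2:121357714-121363737, plus strand) had 0 to 2 counts in each ctrlA library and 0 to 3 in each LNA1 library. In LNA2 cells it had 2, 9 and 20 counts unstimulated and 3, 4 and 5 stimulated. The LNA2 library was higher than its ctrlA partner in 6 of 6 pairs, and the 2 highest values were unstimulated LNA2 replicates 3 and 4. Fitted without the filter, Ckmt1 gave a log2 fold change with LNA2 of 2.81 ± 0.704 that did not pass (adjusted p = 0.0731), and DESeq2 gave 2.99 (adjusted p = 0.0377). Ckmt1 had 5 counts over the 6 ctrlA libraries and 43 over the 6 LNA2 libraries, 20 of them in 1 library. The gene Strc overlaps exons of Ckmt1 on the opposite strand and had 7 counts in all.

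**Figure D3:**
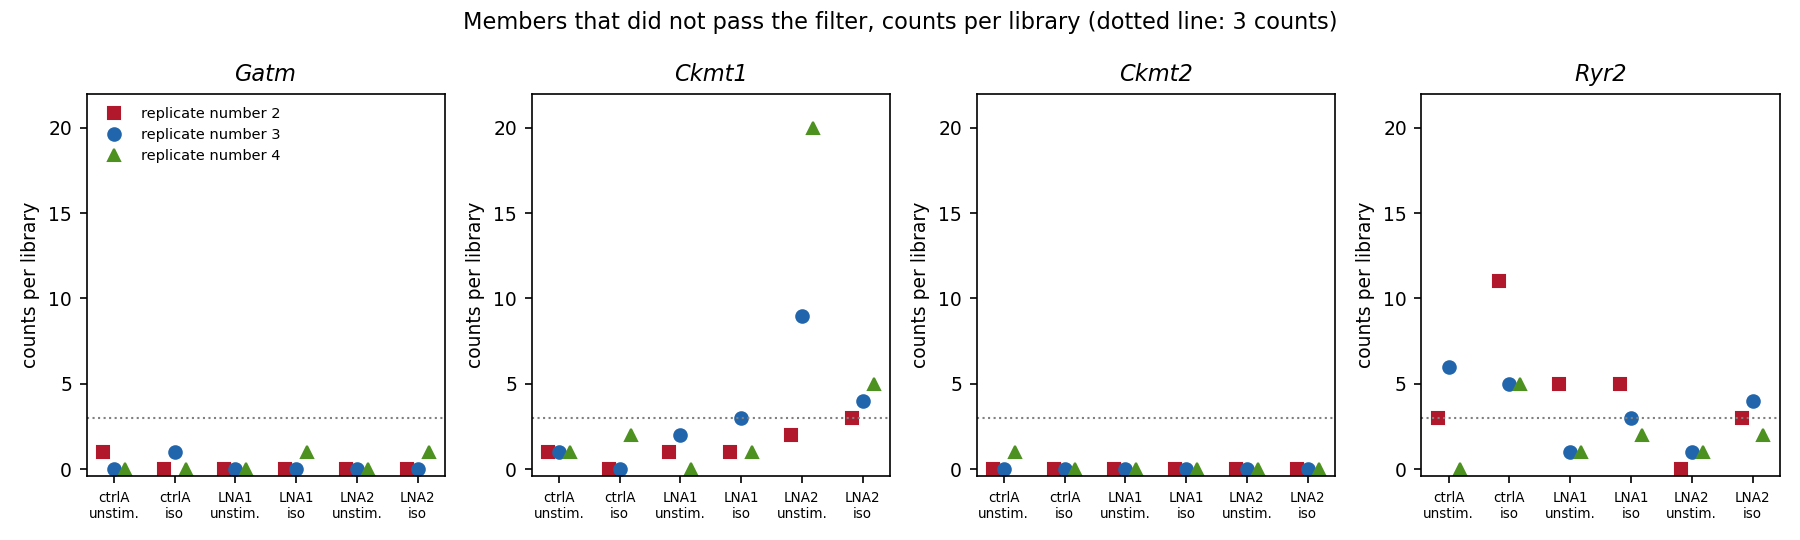
Counts per library (y axis) of the 4 members that did not pass the filter, by group (x axis) and replicate number (symbol), with a dotted line at the floor of 3 counts. Gatm and Ckmt2 never exceed 1 count, Ckmt1 reaches 9 and 20 counts in unstimulated LNA2 cells, and Ryr2 reaches 11 counts in stimulated ctrlA cells.

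Alpl (chr4:137741733-137796384, minus strand) encodes tissue-nonspecific alkaline phosphatase, best known from bone and able to hydrolyse phosphocreatine in thermogenic fat. RefSeq on GRCm38.p6 gives it 2 starts, and both windows of 300 bases are printed because Alpl was the member called with isoproterenol. The upstream one (chr4:137796335-137796634, minus strand) has 70% G and C and none of the 3 motifs. The downstream one (chr4:137766426-137766725, minus strand) has 54.3% G and C, the half-site TGACG, read on the opposite strand, at position -128 from the start and AGGTCA at position -31, both in capitals.
Alpl upstream promoter: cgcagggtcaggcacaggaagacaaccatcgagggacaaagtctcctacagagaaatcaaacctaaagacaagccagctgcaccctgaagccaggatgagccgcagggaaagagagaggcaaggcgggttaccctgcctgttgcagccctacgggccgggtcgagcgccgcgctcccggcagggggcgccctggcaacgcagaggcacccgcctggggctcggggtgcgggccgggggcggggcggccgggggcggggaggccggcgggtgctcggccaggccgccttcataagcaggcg
Alpl downstream promoter: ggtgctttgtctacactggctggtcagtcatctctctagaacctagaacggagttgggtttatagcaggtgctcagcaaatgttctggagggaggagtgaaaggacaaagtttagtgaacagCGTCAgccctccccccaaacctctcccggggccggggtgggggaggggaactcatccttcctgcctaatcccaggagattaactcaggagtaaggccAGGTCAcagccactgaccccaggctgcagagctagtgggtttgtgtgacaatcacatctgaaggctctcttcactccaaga
The table of counts does not separate the 2 starts, so which of them was used is not known from these values. TGACGTCA was in none of the windows of the 8 members that have one. AGGTCA was also in 1 of the 2 windows of Ckmt1 and in those of Gatm, Atp2a1 and Ryr2, where 16.3% of all RefSeq promoters hold it.

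Isoproterenol raised Alpl in every pair of libraries. In unstimulated ctrlA cells Alpl was at 45.4, 82.4 and 90.5 CPM and with isoproterenol at 71.8, 145 and 158 CPM. In LNA1 cells it went from 50.9, 70.4 and 81.4 to 64.2, 143 and 121 CPM. In LNA2 cells it went from 43, 54.6 and 48.7 to 66.4, 130 and 87.8 CPM. The stimulated library was higher in 9 of 9 pairs, and within numbers 3 and 4 the stimulated libraries of LNA2 cells were above all 3 unstimulated ones, as were those of ctrlA and LNA1 cells. The mean was 110 ± 37.2 CPM stimulated and 63 ± 18.2 CPM unstimulated (SD, n = 9), a log2 fold change of 0.81 ± 0.208 (SE) or 1.75-fold (adjusted p = 0.0369).

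For Alpl with isoproterenol the block gave 0.78 ± 0.093 (adjusted p = 1.1e-05) and leaving out replicate number 2 gave 0.89 (adjusted p = 0.00023). Without the block the call was lost in 13 of 18 fits that left out 1 library, with an adjusted p of 0.0539 to 0.0845 in those, while the log2 fold change stayed between 0.71 and 0.90 over all 18. It held without unstimulated ctrlA replicate 4, stimulated ctrlA replicate 2, unstimulated LNA1 replicate 4, stimulated LNA1 replicate 2 or stimulated LNA2 replicate 2. The response was 0.78 ± 0.359 in ctrlA cells, 0.69 ± 0.359 in LNA1 cells and 0.96 ± 0.361 in LNA2 cells (adjusted p = 0.895, 0.812 and 0.607). With the block these became 0.77, 0.65 and 0.92 (adjusted p = 0.00555, 0.0154 and 0.00199). The responses in LNA1 and LNA2 cells differed from that in ctrlA cells by -0.08 ± 0.506 and 0.18 ± 0.506, less than their errors.

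With LNA2, Alpl was lower than its ctrlA partner in 6 of 6 pairs. The log2 fold change was -0.49 ± 0.254 (adjusted p = 0.558), and it passed with the block (-0.45, adjusted p = 0.0109) and without replicate number 2 (-0.58, adjusted p = 0.0129). The log2 ratio was -0.10, -0.37 and -0.87 within numbers 2, 3 and 4, so that its size came mostly from the last of these. With LNA1 the difference was -0.15 ± 0.253 (adjusted p = 1), with the block -0.13 (0.542) and without replicate number 2 -0.17 (0.623). Slc6a8 and Alpl, both higher with isoproterenol, thus lay on opposite sides of ctrlA in LNA2 cells. Isoproterenol also lowered 2 of 6 adipocyte markers, Adipoq (-0.71, adjusted p = 0.0073) and Cidec (-0.39, adjusted p = 0.0117), and the summed level of the 6 was 13900 to 24700 CPM unstimulated and 10300 to 18200 CPM stimulated. Fabp4 made up most of this sum and was itself not called (-0.45, adjusted p = 0.357). Of 4 tested preadipocyte markers Ly6a was higher with isoproterenol (1.58, adjusted p = 0.0415). Pdgfra (-0.03), Cd34 (-0.18) and Pdgfrb (-0.34) went the other way and were not called, and the median was -0.1. The summed level of the list was 41.2 to 57 CPM unstimulated and 42.6 to 88.6 CPM stimulated. Of 2 tested macrophage markers Cd68, a lysosomal gene, was higher (0.90, adjusted p = 0.00618), with a summed level of the 6 listed of 8.28 to 28.8 and 12.4 to 44.6 CPM, while the defining Adgre1 and Ptprc averaged 0.0204 and 0.0539 CPM. The part of these markers in the Alpl result was not tested. Of 6 osteoblast markers only Phex passed the filter, and their summed level was 0.649 to 1.33 CPM unstimulated and 0.102 to 2.48 CPM stimulated.

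**Figure D4:**
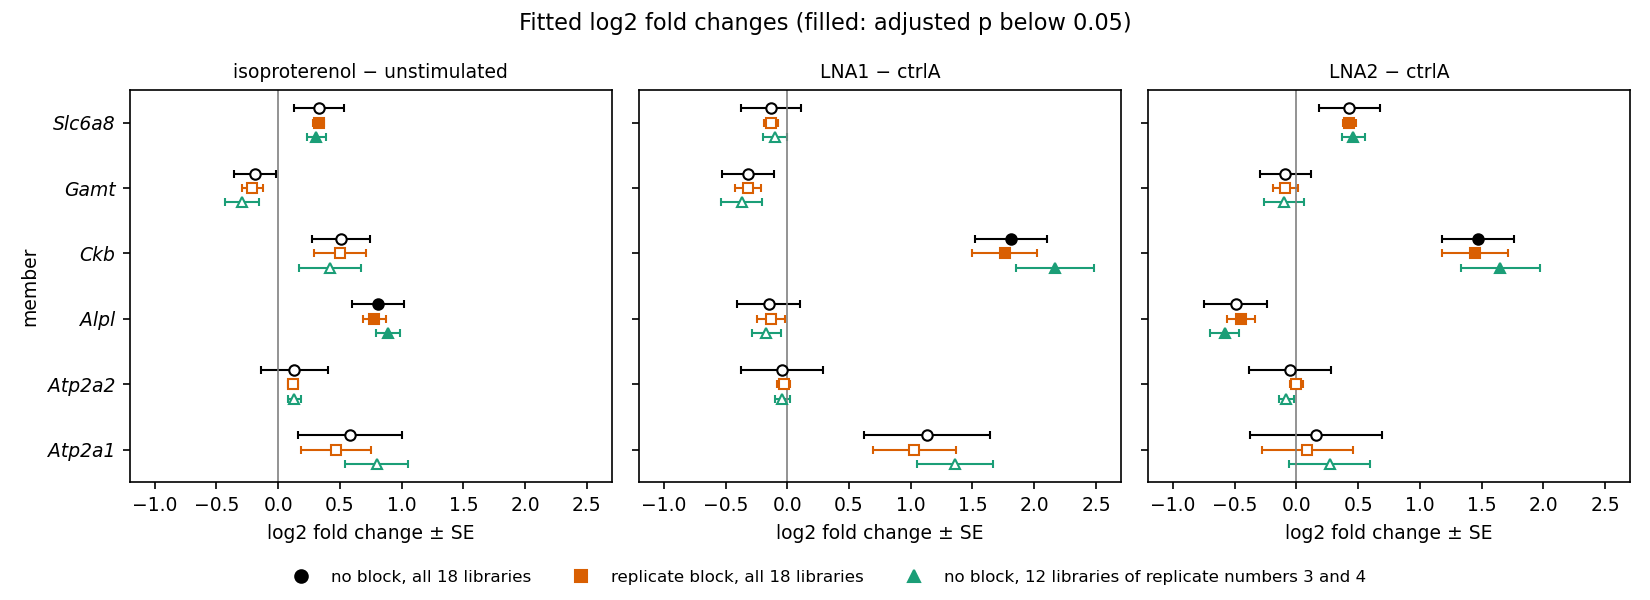
Fitted log2 fold change ± SE (x axis) of the 6 tested members for isoproterenol, LNA1 and LNA2, with all libraries, with the replicate block and without replicate number 2; filled symbols have an adjusted p below 0.05. Ckb is called with LNA1 and LNA2 in all 3 fits and Alpl with isoproterenol in all 3, while Slc6a8 with isoproterenol or LNA2 and Alpl with LNA2 are called in the last 2.

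Atp2a2 (chr5:122453513-122502225, minus strand) encodes SERCA2, the pump on which calcium cycling in beige fat is known to depend. All groups overlapped. Its group means lay between 352 ± 119 and 401 ± 174 CPM (SD, n = 3). With isoproterenol the stimulated library was higher in 9 of 9 pairs, by a log2 fold change of 0.13 ± 0.272 (adjusted p = 0.943, and 0.02 to 0.23 on leaving out 1 library), and with the block by 0.12 ± 0.0442 (adjusted p = 0.0634). LNA1 gave -0.04 ± 0.333 and LNA2 -0.05 ± 0.333 (adjusted p = 1 and 0.994), and -0.03 ± 0.0541 and 0.00 ± 0.0541 with the block (adjusted p = 0.834 and 0.967). Without replicate number 2 the 3 values for Atp2a2 were 0.13, -0.04 and -0.08 (adjusted p = 0.141, 0.871 and 0.488). These values rest on 2343 to 7867 counts per library. Gm43361, which overlaps it on the opposite strand, had a mean of 0.69 CPM.

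Atp2a1 (chr7:126445858-126463108, minus strand), the SERCA1 pump of fast muscle, was low throughout, with 2 to 28 counts per library. It was at 0.511, 0.577 and 0.326 CPM in unstimulated and 0.152, 0.965 and 1.33 CPM in stimulated ctrlA cells. With LNA1 it was at 0.594, 1.95 and 1.53 CPM unstimulated and 0.266, 1.6 and 2.22 CPM stimulated, and with LNA2 at 0.248, 0.496 and 0.7 and at 0.475, 1.41 and 0.999 CPM. The LNA1 library was higher than its ctrlA partner in 6 of 6 pairs, and the groups overlapped through replicate number 2. The log2 fold change with LNA1 was 1.13 ± 0.511 and did not pass (adjusted p = 0.79, 0.0753 with the block and 0.0598 without replicate number 2). With LNA2 it was 0.16 ± 0.536 (adjusted p = 0.988) and with isoproterenol 0.58 ± 0.422 (adjusted p = 0.645). With the block these were 0.09 and 0.47 (adjusted p = 0.902 and 0.245), and without replicate number 2 they were 0.27 and 0.80 (adjusted p = 0.667 and 0.0744). No unstimulated ctrlA or LNA2 library had Atp2a1 above the filter level of 0.774 CPM, and in each other group 2 libraries did. Atp2a1 thus passed the filter only through the groups in which its mean was higher. Rabep2 lies on the opposite strand across exons of Atp2a1 at 11.6 to 30 CPM. The strand setting of the counts is not stated, so reads of Rabep2 within Atp2a1 cannot be told apart here, and Rabep2 itself differed with LNA1 by 0.02.

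Markers of skeletal muscle, where Atp2a1, Ckm and Ckmt2 are abundant, were few. Of 14 such genes 3 passed the filter (Acta1, Mylpf and Des), and the summed level of the 14 was 7.72 to 11.8 CPM unstimulated and 12.2 to 19 CPM stimulated, ranges that did not overlap. The part of these markers in the isoproterenol results, that of Alpl included, was not tested. Myf5 had 0 counts, Myod1 1 count in 1 library, and Ckm at most 3 counts. Des, an intermediate filament gene that other cell types also express, averaged 7.84 CPM and was the largest part of the summed level. It was higher with isoproterenol by 0.81 (adjusted p = 0.00105). Acta1, at a mean of 2.67 CPM, differed by 0.69 (adjusted p = 0.0908) and Mylpf, at 1.05 CPM, by 0.13 (adjusted p = 0.939), and neither was called. In bulk RNA, a change in the share of cells of a type and a change in RNA per cell cannot be told apart.

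Ryr2 (chr13:11553102-12106945, minus strand), the channel that releases calcium in heart muscle and in the calcium cycle of beige fat, had 58 counts over all libraries. In ctrlA cells it had 3, 6 and 0 counts unstimulated and 11, 5 and 5 stimulated. In LNA1 cells it had 5, 1 and 1 and then 5, 3 and 2 counts, and in LNA2 cells 0, 1 and 1 and then 3, 4 and 2 counts. Its CPM was higher with isoproterenol in 8 of 9 pairs, with a log2 fold change of 1.30 ± 0.533 in the fit without the filter that did not pass (adjusted p = 0.441). With LNA2 the value was -1.51 ± 0.666 (adjusted p = 0.788).

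A list of 14 genes set around the creatine cycle, namely transporters, phosphatases, carriers, channels and kinases, included some of the most abundant. A place on this list does not mean that a gene handles creatine itself. Per kilobase the ADP/ATP carriers Slc25a5 and Slc25a4 were at 456 and 237 CPM, and Phospho1, a phosphatase of phosphocholine and phosphoethanolamine, was at 127 CPM. Of 12 tested, edgeR called 1 higher and 0 lower with isoproterenol, 0 with LNA1, and 1 higher and 0 lower with LNA2. The shares of all genes called were 4.58, 0.475 and 1.59%. For LNA1, 1 gene of the list had an unadjusted p under 0.05, and DESeq2 called 1. With the block the counts of called genes of the list were 6, 2 and 5, beside 26.4, 7.8 and 20.6% of all genes. Without replicate number 2 they were 2, 0 and 2, beside 10.9, 1.6 and 8.97%. The median log2 fold changes were 0.13, -0.11 and -0.08, beside -0.002, -0.02 and -0.018 over all genes. Both calls in the unblocked fit were Ak1, cytosolic adenylate kinase, which moves phosphate between adenine nucleotides.

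Ak1 was at 17.5, 14.3 and 14.8 CPM in unstimulated ctrlA cells and at 32.5, 37.4 and 38.9 CPM in unstimulated LNA2 cells. With isoproterenol it was at 23.3, 22.6 and 19.7 CPM in ctrlA cells and at 44.8, 59.2 and 44.8 CPM in LNA2 cells. No LNA2 library overlapped a ctrlA library. Ak1 rose with LNA2 by 1.20 ± 0.114 on the log2 scale (adjusted p = 0.000177) and with isoproterenol by 0.43 ± 0.0921 (adjusted p = 0.0119), and both calls held with the block (1.13e-06 and 0.000331) and without replicate number 2 (0.00012 and 0.00765). With LNA1 it differed by 0.07 ± 0.113, and LNA2 exceeded LNA1 by 1.13 ± 0.114 (adjusted p = 0.000312).

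Of 38 further genes of calcium handling, 36 were found under these names and 23 were tested. By edgeR 0 were called with isoproterenol (2 at an unadjusted p under 0.05, and 1 by DESeq2). With LNA1 0 were called (0 and 0), and with LNA2 1 higher and 0 lower. The shares of all genes called in these comparisons were 4.58, 0.475 and 1.59%. With the block 6, 2 and 8 of the 23 were called, against 26.4, 7.8 and 20.6% of all genes. Without replicate number 2 there were 2, 0 and 4, against 10.9, 1.6 and 8.97%. The medians were -0.05, -0.04 and -0.03. The gene called with LNA2 in the unblocked fit was Orai2, a pore subunit of the channels through which calcium enters when the stores of the endoplasmic reticulum are empty. It was at 3.52, 2.81 and 3.92 CPM in unstimulated ctrlA cells and at 7.76, 12.3 and 16.8 CPM in unstimulated LNA2 cells. With isoproterenol the values were 5.7, 4.7 and 4.8 CPM and 12.2, 19.7 and 15.6 CPM. The LNA2 libraries lay above all ctrlA libraries. Orai2 rose with LNA2 by 1.75 ± 0.182 (adjusted p = 0.000285, 3.45e-06 with the block and 7.3e-05 without replicate number 2) and differed with LNA1 by -0.06 ± 0.185. The pump Atp2a3 differed by -0.24 ± 0.32 with isoproterenol (adjusted p = 0.87).

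As a description over the 18 libraries, which share 3 replicate numbers, the genes whose log2 CPM was most like that of Alpl among 13171 genes were Eno1 (Pearson r = 0.955), Peg10 (0.944) and Tshz1 (0.939). Once the mean of each replicate number was removed they were Lipg (0.963), Ltbp1 (0.963) and Acsf2 (0.944). For Atp2a2 they were Nfic (0.995), Numa1 (0.994) and Ubr2 (0.993), and after removal Dgkz (0.87), Nfic (0.867) and Pafah2 (0.865). Among the members, Slc6a8 and Atp2a2 had r = 0.81 before and 0.42 after the removal, Gamt and Atp2a2 -0.68 before and 0.02 after, and Alpl and Atp2a2 0.70 before and 0.76 after. Ckb and Atp2a1, the members with the highest LNA1 differences, had 0.60 before and 0.62 after.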

How the data were processed

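Polyadenylated RNA of 18 libraries was analysed. The authors used cutadapt for quality trimming and salmon for quantification against the Gencode M22 transcriptome (GRCm38), alone or joined with RNAcentral, per the methods of the study, which do not say which was used for this table. The deposited values are expected counts per gene, which are whole numbers in the table and not scaled to depth. Library totals were 9167560 to 19723021. Tool versions, strand setting and the way of summing to genes are not given in the sources used here. salmon divides shared reads among paralogues, so counts of related pumps and kinases carry that uncertainty. The members and gene lists were chosen with earlier results of these data known.

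The tests were run in edgeR 4.0.16 (R 4.3.3) with filterByExpr (minimum count 10, minimum total 15), TMM normalisation, 1 term per group over all 18 libraries, glmQLFit and two-sided glmQLFTest, Benjamini-Hochberg over 14949 genes, called at an adjusted p below 0.05. LNA effects were averaged over stimulation and the isoproterenol effect over the LNAs. CPM used the effective library sizes. Members that failed the filter were fitted without it. The fit was tested on simulated data. Alternatives were the replicate block, DESeq2 1.42.0, RLE size factors, no filter, an added log2 limit of 0.5, leaving out replicate number 2 (also with the block, chosen after seeing the data) and leaving out each library.

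Replicate numbers paired the samples: deviations from group means correlated at 0.314 to 0.811 in all 45 same-numbered pairs, against -0.692 to 0.506 in 90 others, and 17 of 18 libraries matched their own number best. Within groups no 2 libraries were identical (chi-square per degree of freedom 4.38 to 185 over 18 pairs). Named genes were all 10 members and the called genes of 2 pathway lists, and for likeness the 3 highest r (log2 of CPM plus 0.5, mean of at least 1 CPM). Annotation was GENCODE M21, which held 99.53% of the genes, with coordinates counted from 1. Exon lengths are unions of exons. The ± values are SEs of the fit or SDs over libraries, and the floors cover counting error only.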

Additional observations from a re-analysis of the deposited data

How the results depend on the processing

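Counts of called members moved with the handling of the replicate number. With the replicate block the count was 2 for isoproterenol averaged over the LNAs (1 without it), 2 in each of ctrlA, LNA1 and LNA2 cells (0 without it), 3 for LNA2 against ctrlA (1 without it) and 1 for LNA2 against LNA1 (0 without it). Without replicate number 2 these counts were 2, 1, 1, 1, 3 and 1, and the same with the block added, a fit chosen after seeing the data. Leaving out 1 library gave 0 to 1 for isoproterenol averaged over the LNAs and 0 to 1 for LNA2 against ctrlA. The block changed no other call of a member. DESeq2, RLE size factors, no filter and the added log2 limit of 0.5 left every count over the 6 tested members as it was, DESeq2 also called Ckmt1 with LNA2 (adjusted p = 0.0377), which edgeR did not call without the filter, and RLE moved the median of all genes by -0.004 to 0.007. On leaving out 1 library the log2 fold change changed sign for Atp2a2 with LNA1 (-0.19 to 0.12), Atp2a2 with LNA2 (-0.19 to 0.10), Gamt with LNA2 (-0.19 to 0.03) and Atp2a1 with LNA2 (-0.08 to 0.39), none of them called; the cause was not tested. Among all genes, the calls for isoproterenol on average, in ctrlA, LNA1 and LNA2 cells, for LNA1, for LNA2 and for LNA2 against LNA1 were 684, 73, 105, 59, 71, 237 and 145. They became 3943, 1178, 1471, 1428, 1166, 3081 and 2306 with the block, 1629, 197, 342, 207, 240, 1343 and 761 without replicate number 2, 1964, 353, 543, 355, 352, 1782 and 1079 with both, and 1028, 194, 251, 177, 175, 499 and 320 by DESeq2. Leaving out 1 library gave 499 to 642, 43 to 81, 49 to 108, 23 to 66, 32 to 86, 118 to 288 and 75 to 160, the lowest without unstimulated ctrlA replicate 3 (in ctrlA cells and for LNA1), LNA1 replicate 3 (in LNA1 cells) or 4 (for LNA1), and LNA2 replicate 3 (in LNA2 cells) or 4 (for LNA2 and for LNA2 against LNA1), all unstimulated. With no filter the LNA2 count was 153, and DESeq2 called 2 genes for the change of response by LNA2 (0 by edgeR). Depth limits Ckb, Atp2a1, Ckmt1 and Ryr2 most, and Gatm and Ckmt2 altogether.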
